A study of Mus musculus with 6 samples.

Results

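The nuclear-encoded genes of oxidative phosphorylation were examined in macrophages taken from ischemic mouse muscle. They were chosen by symbol, as the genes whose name begins with Nduf, Uqcr, Atp5 or Cox4 to Cox8, together with Sdha, Sdhb, Sdhc and Sdhd. Names containing -ps, which usually marks pseudogenes, were left out. This gave 97 genes of the 55327 rows with a usable symbol, and 90 of them had enough counts to be tested. By their annotated roles, 38 carry a complex I name, 4 belong to complex II, 8 to complex III, 18 to complex IV and 17 to complex V. The symbols did not select subunits alone: 8 of the 97 are complex I assembly factors (Ndufaf1 to Ndufaf8), and 4 (Ndufs6b, Cox6c2, Ndufb4c and Ndufa11b) are annotated as processed pseudogenes.

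Oxidative phosphorylation takes place in the inner mitochondrial membrane. Complexes I and II pass electrons from NADH and succinate to coenzyme Q, complex III passes them to cytochrome c, and complex IV, cytochrome c oxidase, passes them to oxygen, while complexes I, III and IV pump protons and complex V, ATP synthase, makes ATP from the gradient. Complex II is built from nuclear genes alone, and the others join nuclear products to a few subunits encoded in mitochondrial DNA. Pfkfb3 encodes an enzyme that promotes glycolysis, the other main route to ATP, and macrophages are known to change the balance between the routes with their state of activation.

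The macrophages had been isolated from calf muscle by FACS, at day 3 of hindlimb ischemia, an injury that cuts off blood flow to the leg. There were 3 libraries labelled pfkfb3-ko (KO) and 3 labelled WT. Both groups share the mixed strain background given as 129S1/Sv * 129X1/SvJ * C57BL/6 * CBA, and the protocol gives 1 mg of tamoxifen on 5 consecutive days followed by at least 7 days of washout. The design text names endothelial cells beside the gene, the genotype label names no cell type, no Cre line or animal age is given in the sources used here, and between 7000 and 50000 cells were lysed per sample. No label ties a library to an animal of its own, so every p-value is set against variation among libraries that may be partly technical.

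Total counts were 18853712 to 21070130 in the KO libraries and 21029637 to 29060584 in the WT libraries. Counts in protein-coding genes were 9168139 to 12407035 in KO and 16976422 to 22726111 in WT, so low genes were measured less precisely in KO. One gene model, Gm23935, held 31.7% to 46.3% of the counts of the KO libraries and 13.7% to 16.8% of those of the WT libraries. Pfkfb3 itself stood at 55.5, 59.3 and 160 CPM in KO replicates 1 to 3, against 70.9, 101 and 82.4 CPM in WT replicates 1 to 3 (log2 fold change 0.11, adjusted p = 0.892), so its level did not separate the labels. The KO libraries were not alike. Xist, the RNA that coats the inactive X chromosome, had 154, 171 and 0.129 CPM in KO replicates 1 to 3 and no more than 0.465 CPM in WT, and the Y-linked Ddx3y was at 0.533, 0 and 63.9 CPM in KO and at 60.5 to 69.2 CPM in WT. Genotype and sex type cannot be told apart for KO replicates 1 and 2. All 12 macrophage markers were detected, with a summed level of 12510 to 13370 CPM in KO and 7667 to 10830 CPM in WT; Csf1r, C1qa, C1qb and C1qc rose and Cd68 fell. The 10 neutrophil markers summed to 41.8 to 69.9 CPM in KO and 35.4 to 64.5 CPM in WT, nearly all of it Csf3r (40.9 to 67.9 CPM in KO and 33.8 to 57.7 CPM in WT), with Ly6g and Elane at 0 in all 6 libraries. All 37 rows of mitochondrially encoded genes were at 0 in all libraries, so the mitochondrial partners of these subunits are not analysed here.

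Levels are CPM (counts relative to library size) scaled with TMM factors, and fold changes are log2 of KO over WT with their standard error (SE). Adjusted p-values are from edgeR's quasi-likelihood test with Benjamini-Hochberg adjustment over all 14987 genes tested, unless another test is named, and a gene is said to have changed where the adjusted p is under 0.05. By this test on all libraries, 3516 of these genes had an unadjusted p under 0.05, and so did 25 of the 90 members tested. Counts of members at that level are to be read against this.

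The promoters of 5 genes that changed are shown, because the transcription factors NRF1, the ETS family (NRF2/GABP among them) and YY1 are known regulators of respiratory chain genes and the letters show which of these promoters hold their motifs. Each runs from 250 bases before to 50 bases after the RefSeq transcription start (GRCm38.p6), 5′ to 3′ on the strand of the gene, and capitals mark a match to the NRF1 letters (GCGCA and GCGC with any base between them), the ETS letters (CCGGAAG) or the YY1 letters (AAGATGGC) on either strand. Ndufb4 (chr16:37654319-37654618, minus strand) and Ndufa3 (chr7:3617123-3617422, plus strand) had the largest falls, Cox7b (chrX:106015450-106015749, plus strand) the smallest p, and Cox7a2l (chr17:83514284-83514583, minus strand) and Uqcrh (chr4:116075021-116075320, minus strand) were the genes that rose.
Ndufb4: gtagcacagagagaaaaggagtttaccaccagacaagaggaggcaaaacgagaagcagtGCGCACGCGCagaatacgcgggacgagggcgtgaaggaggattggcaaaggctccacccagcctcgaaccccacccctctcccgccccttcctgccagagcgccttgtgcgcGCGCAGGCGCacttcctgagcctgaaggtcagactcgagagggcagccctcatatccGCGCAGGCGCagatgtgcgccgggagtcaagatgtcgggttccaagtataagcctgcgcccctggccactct
Ndufa3: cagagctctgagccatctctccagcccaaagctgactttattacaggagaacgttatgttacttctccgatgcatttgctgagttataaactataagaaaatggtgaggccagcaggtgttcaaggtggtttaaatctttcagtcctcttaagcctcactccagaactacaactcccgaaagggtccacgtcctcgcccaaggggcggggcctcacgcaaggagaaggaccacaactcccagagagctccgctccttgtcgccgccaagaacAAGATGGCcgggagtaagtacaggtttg
Cox7b: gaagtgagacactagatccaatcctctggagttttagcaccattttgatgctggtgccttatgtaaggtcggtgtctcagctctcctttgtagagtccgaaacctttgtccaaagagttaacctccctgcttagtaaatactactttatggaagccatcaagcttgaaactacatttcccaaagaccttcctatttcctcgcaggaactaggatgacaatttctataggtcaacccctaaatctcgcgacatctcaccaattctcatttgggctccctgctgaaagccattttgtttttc
Cox7a2l: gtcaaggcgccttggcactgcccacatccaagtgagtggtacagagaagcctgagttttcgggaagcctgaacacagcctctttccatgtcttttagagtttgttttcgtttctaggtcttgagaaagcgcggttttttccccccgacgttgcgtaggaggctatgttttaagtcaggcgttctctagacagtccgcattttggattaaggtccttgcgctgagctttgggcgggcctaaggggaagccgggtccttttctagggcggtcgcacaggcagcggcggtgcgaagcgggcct
Uqcrh: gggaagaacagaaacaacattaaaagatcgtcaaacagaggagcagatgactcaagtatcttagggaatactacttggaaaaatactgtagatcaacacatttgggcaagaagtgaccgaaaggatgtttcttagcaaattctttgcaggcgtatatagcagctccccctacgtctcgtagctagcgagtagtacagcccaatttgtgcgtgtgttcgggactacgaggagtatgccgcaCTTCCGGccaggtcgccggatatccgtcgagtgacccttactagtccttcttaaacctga

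The Ndufb4 promoter held 3 NRF1 matches, that of Ndufa3 a YY1 match just after the start and that of Uqcrh an ETS match on the opposite strand, while the windows of Cox7b and Cox7a2l held none of these letters. Of the 76 members with a promoter in the table, 25% held the NRF1 letters, against 5.19% of 27025 genes. The ETS letters were in 25% of the members and 9.93% of all genes, and the YY1 letters in 14.5% of the members and 3.19% of all genes. Of the 7 members that changed and had a promoter there, 1 held an NRF1 match, 2 an ETS match (Uqcrh and Atp5l) and 1 a YY1 match.

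Few genes of the complexes passed the test, and they did so in both directions. Of the 90 members tested, 2 rose (Cox7a2l and Uqcrh) and 7 fell (Ndufb4, Ndufa3, Atp5mpl, Cox7b, Atp5l, Cox7c and Cox6c) in KO relative to WT. That is 10.0% of the members, against 6.64% of all genes tested, 4.39% of which rose and 2.25% of which fell. The median log2 fold change was -0.11 over the members and 0.01 over all genes tested, and 58 of the 90 lay under 0, against 48.8% of all genes. Fold changes of the members were also closer together, with an SD of 0.38 against 0.68 over all genes. The levels in the KO libraries all lay above the WT libraries for 6 of the 90 members and all below them for 24, where 31.5% of all genes did not overlap (16.8% with KO above and 14.7% with KO below). By DESeq2, 14 members changed, 2 up and 12 down (12.5% of all genes), and by limma-voom with sample weights 36 changed, 17 up and 19 down (32.4% of all genes). The limma-voom weights were 1.72, 2.74 and 0.22 for KO replicates 1 to 3. For WT replicates 1 to 3 they were 0.477, 3.52 and 0.573. All limma-voom calls given here thus rest least on KO replicate 3.

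Among the 81 members that did not pass, the 95% confidence interval of the log2 fold change lay within 1 on either side of 0 for 70 and within 0.58 (a fold of 1.5) for 37. Leaving out a library lowered the calls among the members and among all genes, other than for KO replicate 3. Without KO replicate 2 none of 90 members passed by edgeR, 17 having an unadjusted p under 0.05, where 1.20% of all genes passed. Without WT replicate 2 only Cox7b of 91 did (1.77% of all genes), and without KO replicate 1 only Cox7b and Ndufa3 (1.86% of all genes). Without WT replicate 1 there were 4 calls (3.78% of all genes), and without WT replicate 3 there were 6 (3.07% of all genes). Markers of other cells moved with the groups. Of 12 endothelial markers tested 4 fell, with a summed level of 51.6 to 92.9 CPM in KO and 99.7 to 152 CPM in WT. Of 13 muscle fibre markers tested 9 rose, with a sum of 117 to 169 CPM in KO and 29.6 to 37.0 CPM in WT. Of 9 fibroblast markers tested 6 rose and Pdpn fell, with a sum of 169 to 232 CPM in KO and 65.5 to 184 CPM in WT. Pdpn alone made up 27.8 to 42.9 CPM of the KO sums and 54.3 to 143 CPM of the WT sums, so it holds most of the WT sums. In further lists Ighm of the B cell markers rose (list sum 59.2 to 72.3 CPM in KO and 22.9 to 28.8 CPM in WT), as did Myog and Des of the myoblast markers (18.3 to 24.8 CPM in KO and 3.54 to 4.77 CPM in WT). The part of these cells in the members' values was not tested, and in bulk libraries fewer cells of a type and less RNA per cell cannot be told apart.

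**Figure D1:**
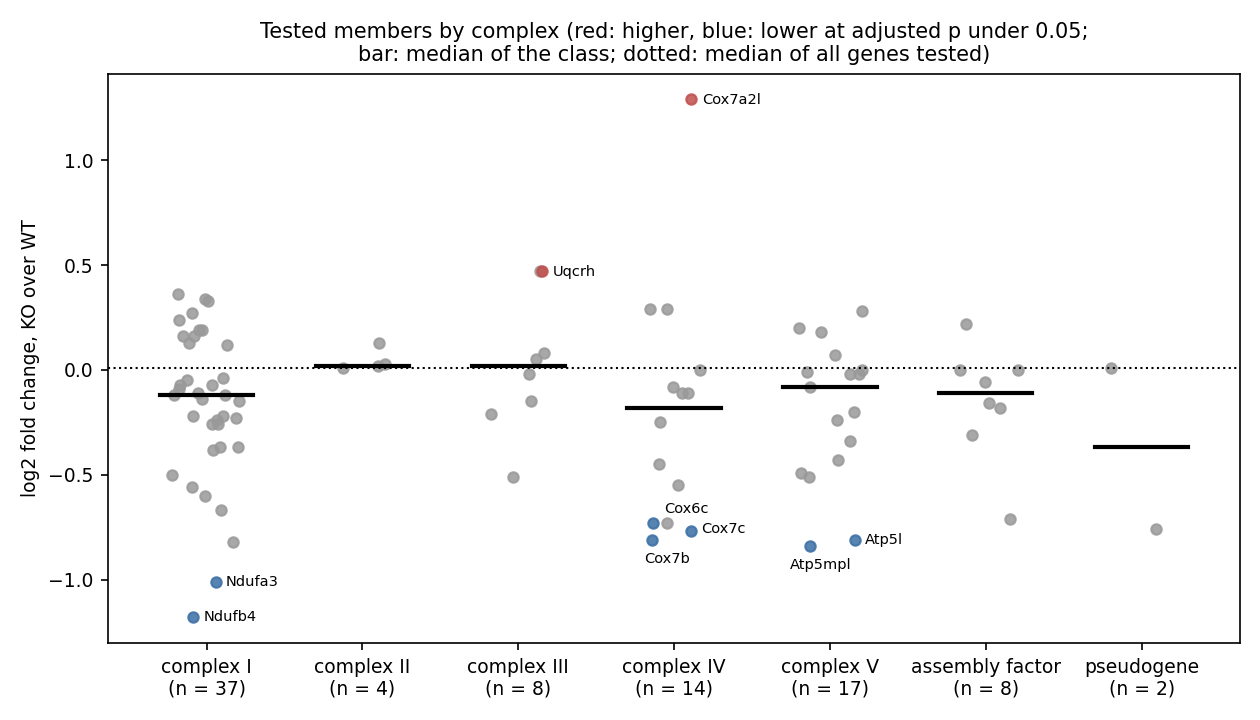
Log2 fold change (KO over WT, y axis) of each of the 90 tested members, by complex (x axis); the bars are class medians, from -0.37 for the 2 pseudogenes to 0.02 for complexes II and III, and the dotted line is the median of all genes tested, 0.01. The genes that fell lie in complexes I, IV and V, with Cox7a2l (1.29) far above the rest; Uqcrh, at 0.47, is at -0.14 when no scaling factor is used.

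In complex I, the NADH dehydrogenase, the genes of 2 accessory subunits of the membrane arm fell, and none of the 7 nuclear core subunits passed. Of its 37 tested genes 0 rose and 2 fell (5.41%, against 6.64% of all genes tested), and the median log2 fold change was -0.12. At such shares, the lack of calls among 7 core genes does not set them apart from the accessory genes. Ndufb4 (chromosome 16, 37647170 to 37654453, minus strand, GRCm38) had 5.86, 7.99 and 8.90 CPM in KO replicates 1 to 3, against 20.7, 16.9 and 14.0 CPM in WT replicates 1 to 3. Every KO library was below every WT library, and the log2 fold change was -1.18 (SE 0.22, adjusted p = 0.0187). The call was lost without KO replicate 1 or 2 or without WT replicate 1 or 2, with an adjusted p of at most 0.0702. Ndufa3 (chromosome 7, 3617373 to 3620327, plus strand) had 11.8, 8.63 and 10.6 CPM in KO, against 23.6, 19.5 and 19.4 CPM in WT. Again the groups did not overlap, with a log2 fold change of -1.01 (SE 0.18, adjusted p = 0.0149), and the call was lost without KO replicate 2 or WT replicate 2 (adjusted p up to 0.0759). Ndufa3 overlaps Tfpt on the opposite strand, and since the strand setting of the counting is not given in the sources used here, reads of the pair cannot be told apart.

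The core subunits, among them the carriers of the flavin and of the iron-sulfur clusters, averaged a summed 345 ± 49.3 CPM in KO and 341 ± 9.61 CPM in WT (SD, n = 3 each). By edgeR none of the 7 passed, 2 of them at an unadjusted p under 0.05. DESeq2 also called none, and limma-voom called 2 higher and 1 lower. Ndufs8, an iron-sulfur subunit, had 27.7, 30.1 and 27.5 CPM in KO and 40.7, 36.8 and 32.9 CPM in WT, with no overlap (log2 fold change -0.37, adjusted p = 0.135). The core genes Ndufs1, Ndufs3, Ndufs7, Ndufv1 and Ndufv2, had log2 fold changes of -0.24 to 0.16 and overlapping groups.

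Of the 29 accessory genes, 2 fell (6.9% called, near the 6.64% of all genes tested). KO was wholly below WT in 8 of the 29 and wholly above it in 2. Over all genes tested these shares were 14.7% and 16.8%. Ndufv3, a small subunit of the NADH-oxidizing module, had 62.8, 62.8 and 57.1 CPM in KO and 44.7, 48.5 and 51.2 CPM in WT (log2 fold change 0.34, SE 0.12, adjusted p = 0.129), so it did not pass although the groups did not overlap. The genes of this class with the highest level per length, Ndufa2 and Ndufb10, averaged 81.8 and 51.0 CPM per kb of exon in KO and 85.6 and 46.8 in WT, with log2 fold changes of -0.07 and 0.13. Ndufa12 and Ndufb8 were just outside the threshold, at -0.82 (SE 0.24, adjusted p = 0.0784) and -0.56 (SE 0.15, adjusted p = 0.0651), and both passed by DESeq2. Ndufa4, which keeps a complex I name although its protein is known as a subunit of complex IV, had 9.97, 12.0 and 12.8 CPM in KO and 15.9, 18.3 and 21.2 CPM in WT (log2 fold change -0.67, SE 0.18, adjusted p = 0.0571), with no overlap.

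Complex II, succinate dehydrogenase, had the narrowest range of fold changes of the 5 complexes, with an SD of 0.06. None of its 4 genes passed by edgeR, none had an unadjusted p under 0.05, DESeq2 called none and limma-voom called Sdha higher. With 6.64% of all genes tested changed by edgeR, the lack of calls among 4 genes does not set them apart. The flavoprotein gene Sdha had 220, 220 and 131 CPM in KO and 166, 177 and 179 CPM in WT, with a log2 fold change of 0.13 (95% confidence interval -0.31 to 0.57). KO replicates 1 and 2 stood above all WT libraries and KO replicate 3 below them. Sdhb, the iron-sulfur subunit, had 75.7, 81.0 and 63.4 CPM in KO and 79.1, 72.3 and 66.4 CPM in WT (log2 fold change 0.02). The membrane anchors Sdhc and Sdhd were at 0.01 and 0.03, with intervals of -0.45 to 0.47 and -0.39 to 0.44.

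In complex III, the cytochrome bc1 complex, Uqcrh, the gene of the hinge protein, rose among 8 genes tested, and none fell. That is 12.5% of them, against 6.64% of all genes tested. Uqcrh (chromosome 4, 116066965 to 116075071, minus strand) had 88.0, 89.9 and 78.5 CPM in KO, against 61.5, 61.1 and 62.1 CPM in WT. All KO libraries were above all WT libraries, and the log2 fold change was 0.47 (SE 0.12, adjusted p = 0.0446). The call held only when KO replicate 3 was left out (adjusted p up to 0.237 without the others), the log2 fold change was -0.14 with no scaling factor, and the gene overlaps Gm12854 on the opposite strand. Uqcrb, another small subunit, lay the other way at 41.6, 40.7 and 36.4 CPM in KO and 67.2, 52.7 and 49.4 CPM in WT (log2 fold change -0.51, SE 0.15, adjusted p = 0.0776). Uqcrfs1, the Rieske iron-sulfur protein, had 73.4, 71.8 and 48.4 CPM in KO and 43.9, 45.1 and 50.6 CPM in WT, where only KO replicates 1 and 2 exceeded WT (log2 fold change 0.47, adjusted p = 0.143). The core genes Uqcrc1 and Uqcrc2 were at -0.02 and 0.05.

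Complex IV, cytochrome c oxidase, held the widest range of fold changes, -0.81 to 1.29 over 14 tested genes. Of these 1 rose and 3 fell (28.6%, against 6.64% of all genes tested). The genes that fell encode small structural subunits around the catalytic core. Cox7b (chromosome X, 106015700 to 106022450, plus strand) had 34.8, 33.7 and 33.0 CPM in KO, against 64.9, 58.1 and 55.6 CPM in WT. The 3 KO libraries were close together and far below WT, with a log2 fold change of -0.81 (SE 0.12, adjusted p = 0.00898). KO replicate 3, which differs from the other KO libraries in Xist, had the same low level. That library was also the lowest of the 6 in 59 of the 90 tested members. The part of sex type in the Cox7b values was not tested. The call was lost only without KO replicate 2 (adjusted p = 0.059) among the leave-outs of 1 library.

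Cox6c (chromosome 15, 35925886 to 35938246, minus strand) had 61.9, 54.2 and 54.3 CPM in KO, against 112, 90.5 and 80.7 CPM in WT. The groups did not overlap, at a log2 fold change of -0.73 (SE 0.15, adjusted p = 0.025), and the call was lost without KO replicate 1 or 2 or WT replicate 1 or 2 (adjusted p up to 0.127). It overlaps Vps13b on the opposite strand, and its processed pseudogene Cox6c2, near-identical copies being hard to tell apart in counting, had 3.78, 5.14 and 3.22 CPM in KO and 8.07, 6.41 and 6.05 CPM in WT (log2 fold change -0.76, adjusted p = 0.109). Cox7c (chromosome 13, 86044816 to 86046904, minus strand) had 6.29, 7.06 and 5.09 CPM in KO, against 10.5, 10.8 and 10.1 CPM in WT. All KO libraries were lower, at a log2 fold change of -0.77 (SE 0.19, adjusted p = 0.0463). This call held only when KO replicate 3 was left out (adjusted p up to 0.163 without the others), and a small RNA gene model, Gm22574, lies in the gene on the same strand.

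Cox7a2l, a relative of the Cox7a2 subunit known for joining complexes III and IV into a supercomplex, rose most. The gene (chromosome 17, 83501918 to 83517330, minus strand) had 78.8, 75.3 and 43.1 CPM in KO, against 27.1, 23.0 and 30.7 CPM in WT. Every KO library was above WT, with KO replicate 3 the nearest to it, and the log2 fold change was 1.29 (SE 0.23, adjusted p = 0.0165). The call was lost without KO replicate 1 or 2 or WT replicate 2 (adjusted p up to 0.0851), with log2 fold changes of 1.12 to 1.52 when 1 library was left out, and it was 0.62 (adjusted p = 0.144) for KO replicate 3 alone against WT. None of the 7 tested genes within 1000000 bases of it changed by edgeR. With 6.64% of all genes tested changed, that count says little about the region. Per kb of exon, Cox7a2l stood at 2.30, 2.82 and 2.62 times the level of Cox7a2 in KO replicates 1 to 3 and at 0.877, 0.627 and 0.807 times in WT. On this per-kb scale the order of the pair was thus reversed in every KO library. Cox7a2l alone already lay above WT in every KO library, so the difference in this ratio was largely set in advance. The order also rests on the exon lengths used. In CPM, WT replicates 1 to 3 had 27.1, 23.0 and 30.7 for Cox7a2l and 19.8, 23.4 and 24.3 for Cox7a2. Mouse strains are known to carry different alleles of Cox7a2l, the strain background here is mixed in both groups, and the counts do not show which allele a library carried.

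The other tested subunits of complex IV did not pass. Cox4i1, the gene of this complex with the highest level per length (98.9 CPM per kb of exon in KO, 81.0 in WT), had 161, 152 and 147 CPM in KO and 129, 122 and 125 CPM in WT (log2 fold change 0.29, SE 0.11, adjusted p = 0.161), without overlap. Cox8a, second by level per length, had 72.8, 61.6 and 42.7 CPM in KO and 46.8, 48.2 and 50.2 CPM in WT (log2 fold change 0.29, adjusted p = 0.395). Cox5a, Cox5b, Cox6a1, Cox6b1 and Cox7a2 had log2 fold changes of -0.45 to 0.00.

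**Figure D2:**
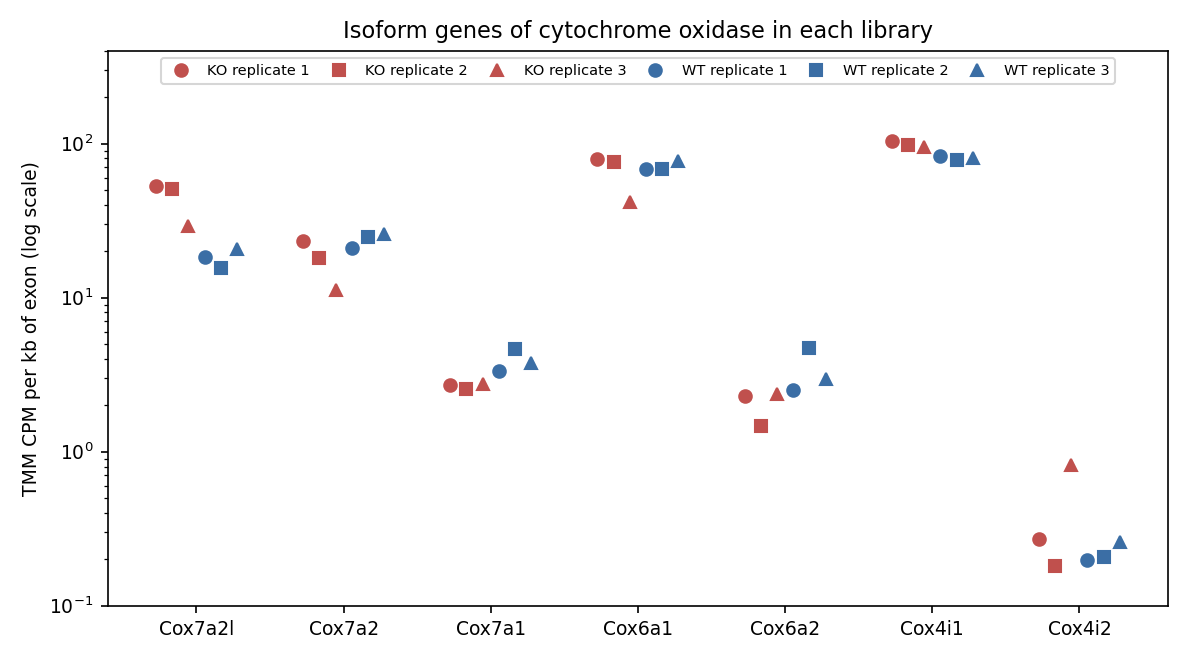
TMM-scaled CPM per kb of exon (y axis, log scale) of complex IV isoform genes (x axis), 1 point per library, KO in red left of WT in blue. On this per-kb scale Cox7a2l lies above Cox7a2 in the KO libraries and below it in the WT libraries. The heart and muscle isoforms Cox7a1 and Cox6a2 lie far below Cox7a2 and Cox6a1 in every library.

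The isoforms typical of heart and skeletal muscle were low in both groups. Cox7a1 had 1.44, 1.36 and 1.48 CPM in KO and 1.78, 2.49 and 2.0 CPM in WT (log2 fold change -0.55, adjusted p = 0.345), and Cox6a2 had 1.55, 0.999 and 1.61 CPM in KO and 1.71, 3.21 and 2.0 CPM in WT (log2 fold change -0.73, adjusted p = 0.295). Both were lower in value in every KO library, and the summed muscle fibre markers were higher in every KO library. The part of muscle RNA in these low values was not tested. Cox8b, the third muscle isoform, had 2, 2 and 8 counts in KO and 0, 0 and 3 counts in WT and was not tested. Cox4i2, an isoform known from lung and from low oxygen, was at 0.213, 0.143 and 0.645 CPM in KO and 0.155, 0.164 and 0.205 CPM in WT. Ndufa4l2, which is known as a target of the hypoxia factor HIF-1, was at 0.480, 0.785 and 0.838 CPM in KO and 0.271, 0.11 and 0.147 CPM in WT, with KO above WT but under the count filter.

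In complex V, ATP synthase, the genes of 2 small membrane subunits fell, and none of the 5 genes of the catalytic F1 head passed. Of 17 tested genes 0 rose and 2 fell (11.8%, against 6.64% of all genes tested). Atp5mpl (chromosome 12, 111961375 to 111966977, minus strand), a short proteolipid of the membrane part, had 39.7, 37.7 and 36.5 CPM in KO, against 80.0, 63.7 and 60.2 CPM in WT. The groups were well apart, with a log2 fold change of -0.84 (SE 0.14, adjusted p = 0.0135), and the call was lost without KO replicate 1 or 2 or WT replicate 2 (adjusted p up to 0.0751). Atp5l (chromosome 9, 44912557 to 44920742, minus strand), subunit g, which lies where ATP synthase forms dimers, had 14.4, 19.3 and 14.6 CPM in KO, against 34.1, 26.7 and 23.8 CPM in WT. There was no overlap, at a log2 fold change of -0.81 (SE 0.19, adjusted p = 0.0395), but the call was lost whichever library was left out (adjusted p up to 0.133). Atp5l overlaps Gm30934 on the opposite strand.

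Together the 5 membrane accessory genes, with Atp5md, Atp5k and Atp5j2, summed to 144, 144 and 130 CPM in KO and 204, 190 and 189 CPM in WT. Their median log2 fold change was -0.49 and all 5 lay under 0, from -0.84 to -0.02, the last being Atp5j2. The F1 head genes (Atp5a1, Atp5b, Atp5c1, Atp5d and Atp5e) summed to 1237, 1250 and 753 CPM in KO and 1003, 1010 and 1130 CPM in WT, with a median of 0.07. None of the 5 passed by edgeR or DESeq2 and none had an unadjusted p under 0.05, while limma-voom called 2 higher. With 6.64% of all genes tested changed by edgeR, the lack of calls among 5 genes does not set the F1 head apart. Atp5a1, the alpha subunit and the most abundant member, had 556, 584 and 341 CPM in KO and 450, 459 and 500 CPM in WT (log2 fold change 0.07), and Atp5b, the catalytic beta subunit, had 447, 424 and 226 CPM in KO and 348, 349 and 414 CPM in WT (log2 fold change -0.02). The 3 genes of subunit c, Atp5g1, Atp5g2 and Atp5g3, which encode the same mature protein, were at -0.51, 0.18 and -0.24, none passing.

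**Figure D3:**
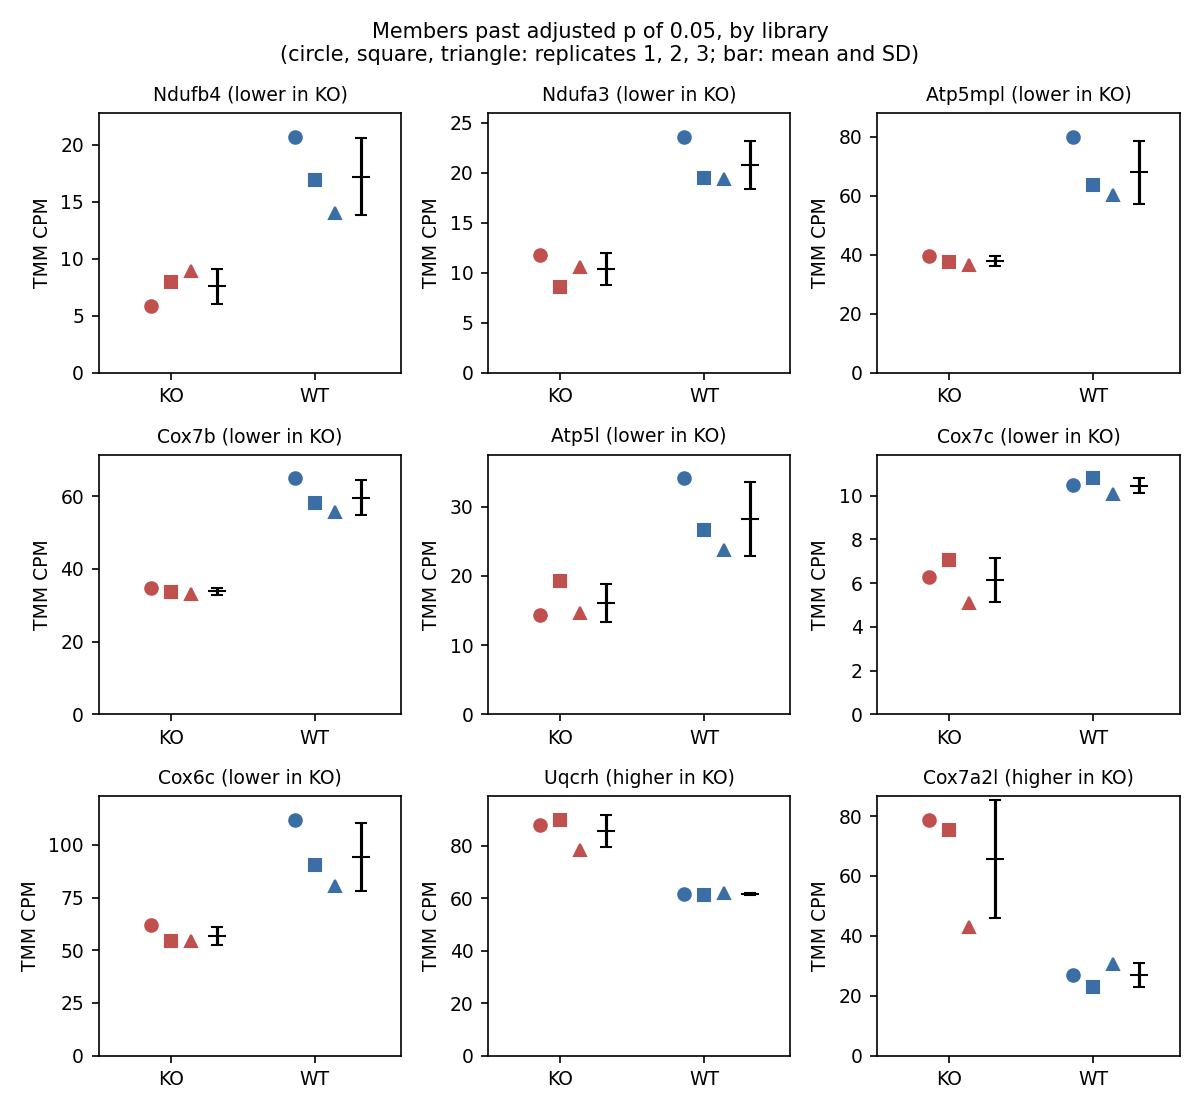
TMM-scaled CPM (y axis, from 0) in each KO (red, left) and WT (blue, right) library of the 9 members that changed, with the mean and SD of each group beside the points. In all 9 panels the KO and WT points do not overlap; Cox7a2l has the largest spread within KO, from 43.1 to 78.8 CPM.

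None of the 8 complex I assembly factors passed by edgeR (1 had an unadjusted p under 0.05), where 6.64% of all genes tested did, and their median was -0.11. Ndufaf2 had 5.86, 4.78 and 3.87 CPM in KO and 8.80, 7.13 and 7.87 CPM in WT (log2 fold change -0.71, adjusted p = 0.0938) and was called lower by DESeq2 and by limma-voom. Of the 4 pseudogenes, Ndufs6b and Cox6c2 were tested and did not pass. The 7 members under the count filter were Ndufa4l2, Cox4i2, Cox8b, Ndufb4c, Ndufa11b, Cox7b2 and Cox8c, and the last 2 were at 0 in all 6 libraries.

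The summed level of the complexes differed within the KO group. The members summed to 4709, 4543 and 3268 CPM in KO replicates 1 to 3, against 4332, 4174 and 4315 CPM in WT replicates 1 to 3, or 0.712%, 0.690% and 0.553% of protein-coding counts in KO and 0.658%, 0.670% and 0.696% in WT. KO replicates 1 and 2 thus stood above WT and KO replicate 3 far below it on the CPM scale, while as a share of protein-coding counts KO replicate 2 lay within the WT range. KO replicate 3 was the lowest of the 6 libraries in 59 of the 90 tested members, where it was lowest in 25.6% of all genes tested. In 18 of the 90, KO replicates 1 and 2 were above all WT libraries and KO replicate 3 below them all, a pattern found in 3.82% of all genes. Relative to the WT mean, the median member was at 0.04, -0.03 and -0.38 in KO replicates 1 to 3 on the log2 scale, while the median of all genes was at 0.00, 0.00 and 0.04.

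**Figure D4:**
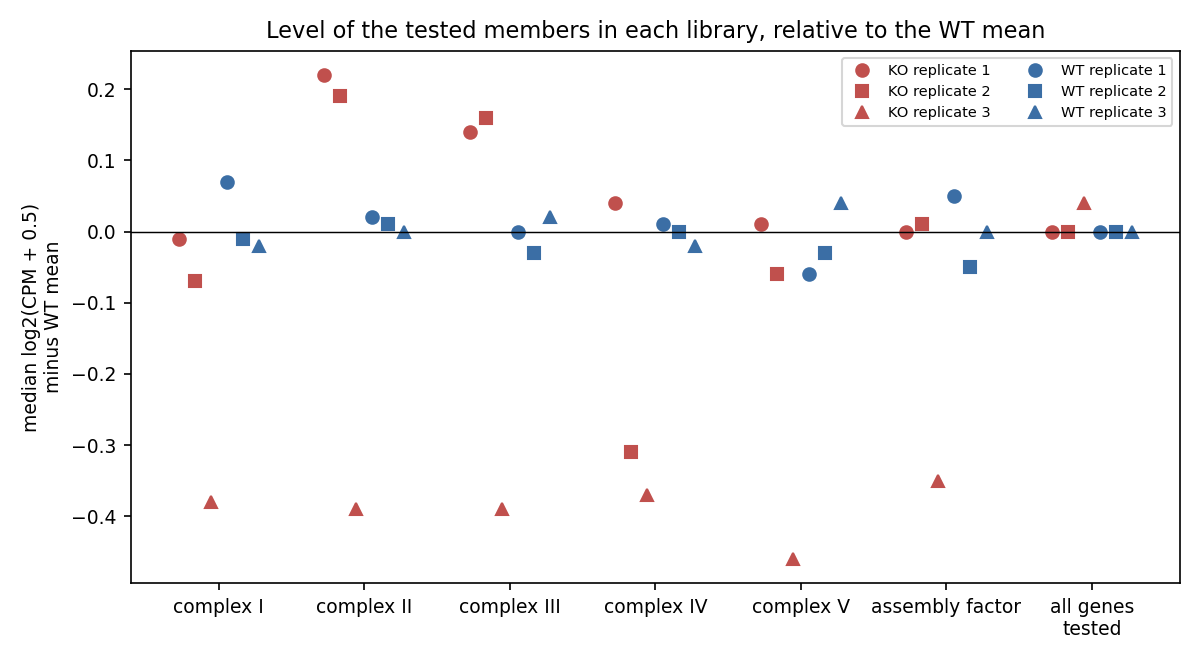
Median over the tested members of each class (x axis) of log2(CPM + 0.5) minus the gene's WT mean (y axis), 1 point per library, KO in red left of WT in blue. KO replicate 3 (red triangle) lies between -0.46 and -0.35 in all 6 classes and at 0.04 over all genes; KO replicate 2 joins it in complex IV alone, at -0.31.

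Without KO replicate 3 there were more calls among the members and among all genes. The KO group was then KO replicates 1 and 2, the most alike pair of libraries (chi-square of 3.92 per degree of freedom). Then 6 members rose (among them Atp5d, Uqcrh, Uqcrfs1, Cox8a and Cox7a2l), against 6.21% of all genes, and 8 fell (Cox6c, Atp5mpl, Cox7b, Atp5md, Ndufa4, Ndufa3, Ndufb4 and Cox7c), against 4.44% of all genes, with a median of 0.00. Of these 14, 8 are among the 9 that changed with all libraries. KO replicate 3 alone against WT gave a median of -0.46 and no call by edgeR (0.844% of all genes passed), with 44 of 92 tested members at an unadjusted p under 0.05, the lone library being assumed to vary like the WT libraries. Since KO replicates 1 and 2 also differ from all other libraries in sex type, the genotype and that difference cannot be told apart in the values without KO replicate 3.

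The genes that changed are all short. All 9 have a longest coding sequence of at most 450 bases, a limit chosen after the values were seen. Of the 46 tested subunit genes of that length 2 rose and 7 fell, with a median log2 fold change of -0.22 and 36 under 0. None of the 31 longer ones passed by edgeR, and their median was 0.02. Over all tested genes with a coding sequence, 773 were as short, with a median of -0.06, 36 rising and 36 falling (4.66% fell). Of the 11015 longer ones 579 rose and 283 fell (2.57% fell), with a median of 0.02. At such shares few calls would fall among 31 longer genes. Spearman's correlation of the log2 fold change with coding length was 0.38 over the 77 subunit genes with a value and 0.04 over 11788 genes; with GC content it was 0.29 over the subunit genes and 0.27 over all 14710 genes with a value. All points of these correlations come from the same 6 libraries, and genes are not independent replicates. With each library's trend in GC content and exonic length removed, 7 of the 9 genes still passed, Atp5l and Cox7c being lost.

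**Figure D5:**
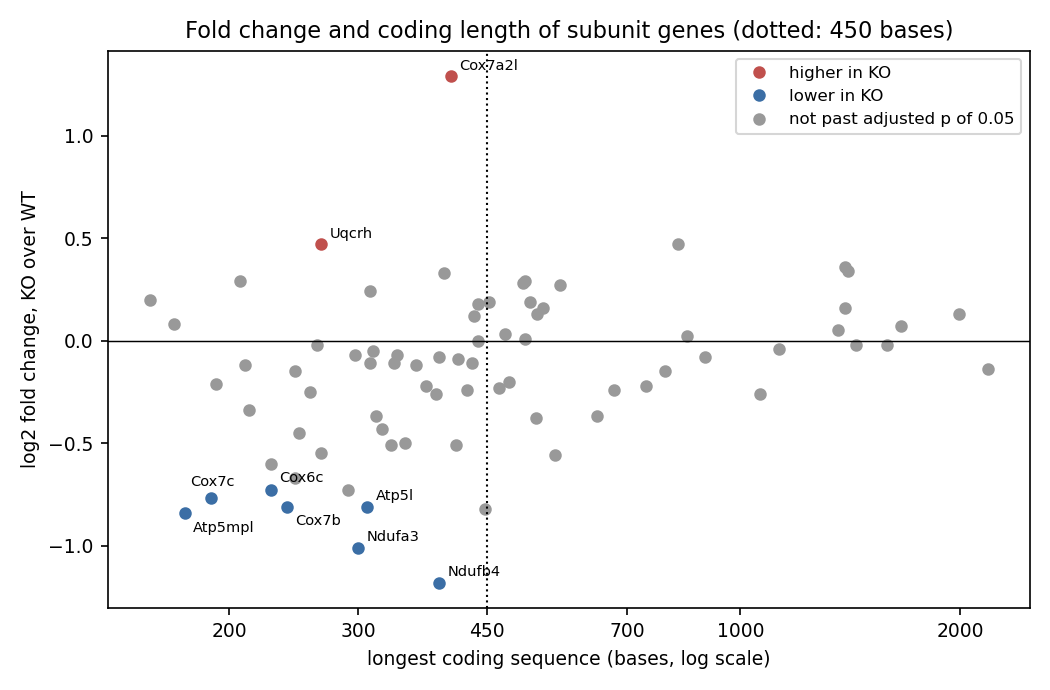
Log2 fold change (KO over WT, y axis) of 77 tested subunit genes by the length of their longest coding sequence in bases (x axis, log scale); genes that rose are red, genes that fell blue, and the dotted line marks 450 bases. The 9 genes that changed lie left of the line, and the longer genes lie around 0; with no scaling factor Uqcrh (0.47 here) is at -0.14.

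Genes that work with the complexes were mostly without a call, as were all genes tested, of which 6.64% changed. Of 13 electron carriers and further respiratory chain genes, none passed by edgeR or DESeq2, 4 had an unadjusted p under 0.05 and limma-voom called 3 higher. Cytochrome c, Cycs, had 48.2, 39.4 and 24.9 CPM in KO and 47.7, 38.8 and 51.3 CPM in WT (log2 fold change -0.29, adjusted p = 0.49), with KO replicate 3 again the lowest. Cytochrome c1, Cyc1, the complex III subunit whose symbol has another stem, was at 0.05 (adjusted p = 0.894). Of 18 transcriptional regulators of mitochondrial genes 16 were tested and none passed by edgeR or DESeq2, 2 having an unadjusted p under 0.05; limma-voom called 1 higher and 2 lower. Tfam, which packages and transcribes mitochondrial DNA, was at 0.15 (adjusted p = 0.615), and Ppargc1a was under the count filter at no more than 0.107 CPM in KO and 0.310 CPM in WT.

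Of the 13 genes of coenzyme Q synthesis 1 rose (7.69%), and of 37 tested assembly factors outside the Nduf names 1 fell (2.7%). Of all genes tested, 6.64% changed. Coq8a, a kinase-like protein needed to make coenzyme Q, had 34.0, 31.5 and 15.3 CPM in KO, against 5.16, 4.91 and 3.05 CPM in WT. Every KO library was above every WT library, with a log2 fold change of 2.62 (SE 0.33, adjusted p = 0.00472), larger than that of any tested member. Pet100, which assists the assembly of complex IV, had 18.6, 15.7 and 19.5 CPM in KO, against 31.2, 27.5 and 25.9 CPM in WT (log2 fold change -0.65, SE 0.15, adjusted p = 0.0368). The call held without KO replicate 3 but was lost when any other library was left out (adjusted p up to 0.159). Pet100 lay below WT in all 3 KO libraries, which was largely set in advance, since it was named for its fall. Of the 37 tested assembly factors, KO was wholly above WT in 6 and wholly below it in 5. Over all genes tested these shares were 16.8% and 14.7%.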

How the data were processed

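The authors deposited a gene table of raw read counts for the 6 libraries, with 55353 rows; 26 rows whose symbol had turned into a date (0.0913% to 0.163% of counts) were left out. Trim Galore, FastQC, HISAT2, featureCounts, DESeq and the build GRCm38 are listed, per the submitters' processing notes; which annotation and strand setting were used is not given in the sources used here. Replicates were numbered in the order of the sample records. Genes were filtered with filterByExpr, scaled with TMM (factors 0.713 to 0.892 in KO, 1.23 to 1.26 in WT) and tested two-sided with edgeR 4.0.16 (R 4.3.3) across the table, a procedure checked on simulated data; alternatives changed the scaling, the count filter, the genes in the fit or the libraries, or used a replicate block, DESeq2 1.42.0, limma 3.58.1 voom or a GC and length correction (mgcv 1.9.3). Positions and lengths came from GENCODE M21, matched on symbol (94 of 97 members), and promoters from RefSeq GRCm38.p6. Genes named were those that changed, the 5 smallest p in each direction, the 2 highest levels per kb in each complex, a fixed set of core subunits and isoforms, and up to 2 genes from each pathway list; others named were chosen after their values were seen. The members, lists and rules were chosen with earlier results of these data known. The values of 1 member are not reported here.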

Additional observations from a re-analysis of the deposited data

How the results depend on the processing

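Of the 9 members that changed, all kept their direction in the 16 alternatives, except Uqcrh with no scaling factor (-0.14). That setting moved the median of all genes to -0.60 and that of the members to -0.71, and it turned Cox5a to -0.61, Cyc1 to -0.56, Ndufb10 to -0.49, Sdhb to -0.60, Sdhc to -0.61, Sdhd to -0.59 and Uqcrc2 to -0.56; relative to the median of all genes these lie at or near 0. Pfkfb3 turned to -0.65 with limma-voom.

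The counts moved more. Against 2 members higher and 7 lower, there were 1 and 63 with no scaling factor, 17 and 19 with limma-voom, 2 and 12 with DESeq2, 1 and 12 with no count filter, 1 higher with DESeq2 size factors, and 0 and 0 for KO replicate 3 alone against WT, where the members' median was -0.46. Leaving out 1 library gave 0 to 6 members higher, 0 to 8 lower and medians of -0.23 to 0.00, with 0 calls without KO replicate 2 and the most calls without KO replicate 3. Over all genes, 658 rose and 337 fell, against 300 and 6008 with no scaling factor, 2601 and 2249 with limma-voom, 1092 and 778 with DESeq2, 1034 and 923 with no count filter, and 101 and 48 for KO replicate 3 alone; leaving out 1 library gave 154 to 963 higher and 35 to 689 lower. The cause of these shifts was not tested.

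The ending of the sample title did not pair the libraries (correlations of same-ending deviations 0.003, -0.087 and -0.144). With it as a replicate block, 0 members rose and 3 fell (Atp5mpl, Cox7b and Ndufa3), and 206 genes rose and 61 fell; no KO library correlated best with the WT library of its own ending.

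With 3 libraries a group, 37 of the 81 members that did not pass have a confidence interval that excludes a fold of 1.5, and the intervals of the others do not exclude it.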

Other observations

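The 11 symbols left out for containing -ps were mostly near the count floor, and 6 of them were tested. None changed by edgeR or DESeq2, and limma-voom called 1 lower. Atp5k-ps2, a processed pseudogene of a complex V membrane subunit, had an unadjusted p under 0.05, at 4.8, 2.92 and 2.19 CPM in KO and 5.24, 6.19 and 6.28 CPM in WT (log2 fold change -0.83, SE 0.31, adjusted p = 0.146). Ndufb1-ps, whose symbol marks a pseudogene and which the annotation gives as a long noncoding RNA from a bidirectional promoter, was the highest of them, at 15.4, 11.8 and 13.7 CPM in KO and 17.8, 16.2 and 15.5 CPM in WT (log2 fold change -0.27, SE 0.16, adjusted p = 0.351). Its KO libraries were all below its WT libraries.

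Relative levels of genes of the same complex were set side by side per kb of exon. Atp5g2 stood at 0.589, 0.503 and 0.591 times the level of Atp5g3 in KO and 0.478, 0.406 and 0.381 times in WT, with no overlap between groups. Uqcrh stood at 1.98, 2.15 and 2.66 times the level of Uqcrq in KO and 1.52, 1.44 and 1.36 times in WT. These did not overlap either, but Uqcrh alone already lay above WT in every KO library, so this was largely set in advance. Of this pair in complex III only Uqcrh rose. The ratios of Cox7a1 to Cox7a2, Cox6a2 to Cox6a1, Cox6c2 to Cox6c, Cox4i2 to Cox4i1 and Atp5g1 to Atp5g3 overlapped between the groups.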
